A study of Mus musculus with 6 samples.

Results

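Metallothioneins are small cysteine-rich proteins that bind zinc and other metals, and zinc transporters move the ion across membranes. The 6 genes described here were chosen by name: Mt1 and Mt2, the 2 widely expressed metallothionein genes of the mouse, Mtf1, which encodes the metal-sensing transcription factor MTF1, the zinc exporter gene Slc30a1 (ZnT1), and the zinc importer genes Slc39a6 (ZIP6) and Slc39a10 (ZIP10). All 6 were among the 25033 gene symbols of the deposited files, and all 6 were among the 12978 genes tested. They were measured by mRNA sequencing of GFP+ cells sorted from the bone marrow of transplanted C57BL/6J mice aged 6 months, which the labels call haematopoietic stem cells (HSCs). In the inhibitor group (3 libraries), the mice had received HSCs treated with an inhibitor of miR-31-5p, and in the control group (3 libraries) HSCs treated with a control RNA. The labels give no genotype or recipient conditioning, and do not say whether each library is from an animal of its own. The p-values therefore measure the spread between these libraries only, which may be technical.

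As background, free zinc in a cell activates MTF1, which binds metal response elements in the promoters of the metallothionein genes and of Slc30a1 and raises their transcription. The proteins then bind or export zinc, while ZIP proteins bring it in. In mice, Slc39a10 is repressed by MTF1 when zinc is plentiful, and the importer is needed by B lineage cells and haematopoietic stem cells. ZIP6 and ZIP10 can form a complex with each other at the plasma membrane.

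The promoters of the 3 genes that were higher in the inhibitor group are shown because these are textbook MTF1 targets. Each is a window of 300 bases from RefSeq (GRCm38.p6, which is mm10), with 250 bases before the start of the table's transcript and 50 from it, all on the plus strand, and 5 of the 6 genes were matched to such a window by symbol. Capitals mark the core of the metal response element, searched on both strands as TGCACNC and TGCGCNC (these differ at 1 fixed base, so no position matches both, and no matches overlap in these 3 windows). For Mt1 and Slc30a1 that transcript starts inside the gene's span. The windows lie at chr8:94178839-94179138 for Mt1, chr8:94172368-94172667 for Mt2 and chr1:191906531-191906830 for Slc30a1.
Mt1 promoter: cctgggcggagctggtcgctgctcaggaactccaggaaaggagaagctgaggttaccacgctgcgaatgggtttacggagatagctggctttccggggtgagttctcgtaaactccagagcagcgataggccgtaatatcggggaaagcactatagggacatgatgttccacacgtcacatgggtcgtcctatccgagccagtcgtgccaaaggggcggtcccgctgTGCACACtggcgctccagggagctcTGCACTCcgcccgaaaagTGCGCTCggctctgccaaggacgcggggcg
Mt2 promoter: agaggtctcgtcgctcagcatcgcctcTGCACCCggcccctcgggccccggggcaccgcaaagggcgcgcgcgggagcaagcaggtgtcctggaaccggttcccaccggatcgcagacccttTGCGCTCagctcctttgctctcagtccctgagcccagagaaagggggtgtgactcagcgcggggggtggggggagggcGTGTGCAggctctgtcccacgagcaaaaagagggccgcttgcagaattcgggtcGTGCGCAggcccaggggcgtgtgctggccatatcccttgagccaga
Slc30a1 promoter: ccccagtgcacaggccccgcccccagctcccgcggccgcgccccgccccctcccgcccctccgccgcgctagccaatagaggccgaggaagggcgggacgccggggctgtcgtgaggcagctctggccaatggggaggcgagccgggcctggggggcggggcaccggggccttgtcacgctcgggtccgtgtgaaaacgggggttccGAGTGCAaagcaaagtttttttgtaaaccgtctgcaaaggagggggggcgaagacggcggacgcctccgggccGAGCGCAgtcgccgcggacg

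The Mt2 window held 4 cores, the Mt1 window 3 and the Slc30a1 window 2. Cores outside these windows were not searched for, so the counts do not cover a whole promoter and do not rank the genes. Of 32851 RefSeq promoter windows of the same length, 25.7% held at least 1 core, 7.11% at least 2, 1.97% at least 3 and 0.517% at least 4. TGCACNC alone was in 12.6% of windows and TGCGCNC in 15.4%. The Mtf1 window and the 2 windows of Slc39a10, which has 2 annotated starts in the table, held no match to these letters. The core of the antioxidant response element, TGACNNNGC, was searched as well and is not in capitals. The Mt2 and Slc30a1 windows held 1 match each and the Mt1 window none, beside 12.4% of all windows with a match. A match is a description of the sequence and not a measured binding site.

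The agent given to the donor cells targets miR-31-5p, whose mature sequence (RefSeq) is printed with its seed, bases 2 to 8, in capitals, beside the site that pairs with the seed, TCTTGCC, where 1 of the 6 genes holds it.
mmu-miR-31-5p: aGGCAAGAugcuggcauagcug
Mtf1 site: acagccacagTCTTGCCttcttggctc

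That site was found once in the longest annotated 3′ UTR of Mtf1 (GENCODE M21, 5457 bases, site starting at base 949), printed above with its flanks and the site in capitals. It was absent from the longest 3′ UTRs of the other 5 genes, which ran from 134 bases in Mt1 to 3492 in Slc30a1. Among 12280 tested genes with an annotated 3′ UTR, 12.6% held at least 1 such site. The Mtf1 site was not followed by the A of an 8mer match.

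Libraries held 16873188 to 19496200 counts in the inhibitor group and 19866738 to 21245861 in the control group. Of all 12978 tested genes, 40.5% were called by edgeR (quasi-likelihood test, Benjamini-Hochberg adjusted p under 0.05), 20.4% higher and 20.1% lower in the inhibitor group, and the median log2 change was -0.01. In 52.4% of tested genes the 3 inhibitor libraries did not overlap the 3 control libraries. The progenitor genes Kit and Cd34 averaged 406 and 387 CPM (CPM after TMM normalisation) in the inhibitor group, against 402 and 363 CPM in the control group, while the HSC marker Procr had 7.54 CPM in the inhibitor group against 1.06 CPM in the control group, and Mecom 0.384 CPM against 0.635 CPM. Of 8 HSC and progenitor markers, 3 were higher and 1 lower. The lower one was Hlf, with 3.65 CPM in the inhibitor group against 6.94 CPM in the control group. Mecom was not called, and its groups overlapped. All 6 megakaryocyte markers were higher, with a summed level of 3027 to 3145 CPM in inhibitor libraries and 1336 to 1561 CPM in control libraries. Of the 6 monocyte and macrophage markers, 1 was higher and 2 lower, with sums of 2131 to 2199 CPM in inhibitor libraries and 3510 to 3600 CPM in control libraries. Neutrophil markers summed to 5258 to 5355 CPM in inhibitor libraries and 5867 to 6557 CPM in control libraries (5 of 8 higher, 3 lower), and dendritic cell markers to 1008 to 1032 CPM in inhibitor libraries and 718 to 847 CPM in control libraries (4 of 6 higher, 2 lower). Erythroid markers summed to 18.4 to 21 CPM in inhibitor libraries and 5.73 to 7.33 CPM in control libraries (4 of 5 tested higher, 0 lower), and B cell markers to 9.68 to 10.1 CPM in inhibitor libraries and 16.8 to 18.9 CPM in control libraries (2 of 2 tested lower). Mast cell and basophil markers summed to 1236 to 1338 CPM in inhibitor libraries and 1157 to 1187 CPM in control libraries (2 of 7 higher, 1 lower), and stroma and endothelium markers to 146 to 157 CPM in inhibitor libraries and 121 to 132 CPM in control libraries (1 of 2 tested higher, 0 lower). Most of the stroma and endothelium sum was Pecam1 alone (145 CPM in the inhibitor group, 122 CPM in the control group). Col1a1, Cxcl12, Lepr and Cdh5 had too few counts to be tested. Most of the B cell sum was Cd79b (9.19 CPM in the inhibitor group, 16.6 CPM in the control group). T cell markers summed to 1.54 to 1.90 CPM in inhibitor libraries and 1.74 to 2.45 CPM in control libraries, with 0 of 2 tested called. None of the markers of any list was at 0 in all 6 libraries. In bulk RNA, a change in the share of a cell type and a change of RNA per cell cannot be told apart, and the part of these markers in the results below was not tested. On the second principal component, with 9.5% of the variance, control library 1 lay away from controls 2 and 3. The ribosomal precursor Rn45s had 1784 to 3145 counts in inhibitor libraries and 3667 to 61656 in control libraries.

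Transcripts of both metallothioneins and of the zinc exporter ZnT1 were higher in the inhibitor group, and those of the importer ZIP10 were lower. Mt2 rose 2.32-fold, Slc30a1 1.5-fold and Mt1 1.41-fold, and Slc39a10 fell by 0.31 on the log2 scale. Neither Mtf1 nor Slc39a6 passed the threshold. In GENCODE M21, genes of the opposite strand overlap Mt2 (Gm45774, over 749 bases), Slc30a1 (1700034H15Rik, 761 bases), Mtf1 (1110065P20Rik, 721 bases) and Slc39a6 (Elp2, 952 bases). As the strand of counting is not given in the sources used here, reads of these partners cannot be told apart from those of the genes described. Genes of the same strand overlap Slc39a10 (Gm28151, 951 bases, and Gm37393, 3870 bases) and Mtf1 (n-R5s192, 119 bases). Of these 6 genes, 4 were called, 3 higher and 1 lower, beside the 40.5% called among all tested genes. In the same 4 the groups did not overlap, beside 52.4% among all. The 6 genes were chosen with earlier results of these data known, so these counts are a description only. Control libraries 1 and 3 held the most Rn45s, and leaving both out left 1 control, assumed to vary like the inhibitor libraries. The log2 changes were then 0.44 for Mt1, 1.58 for Mt2, 0.49 for Slc30a1, -0.37 for Slc39a10 and -0.22 for Slc39a6.

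**Figure D1:**
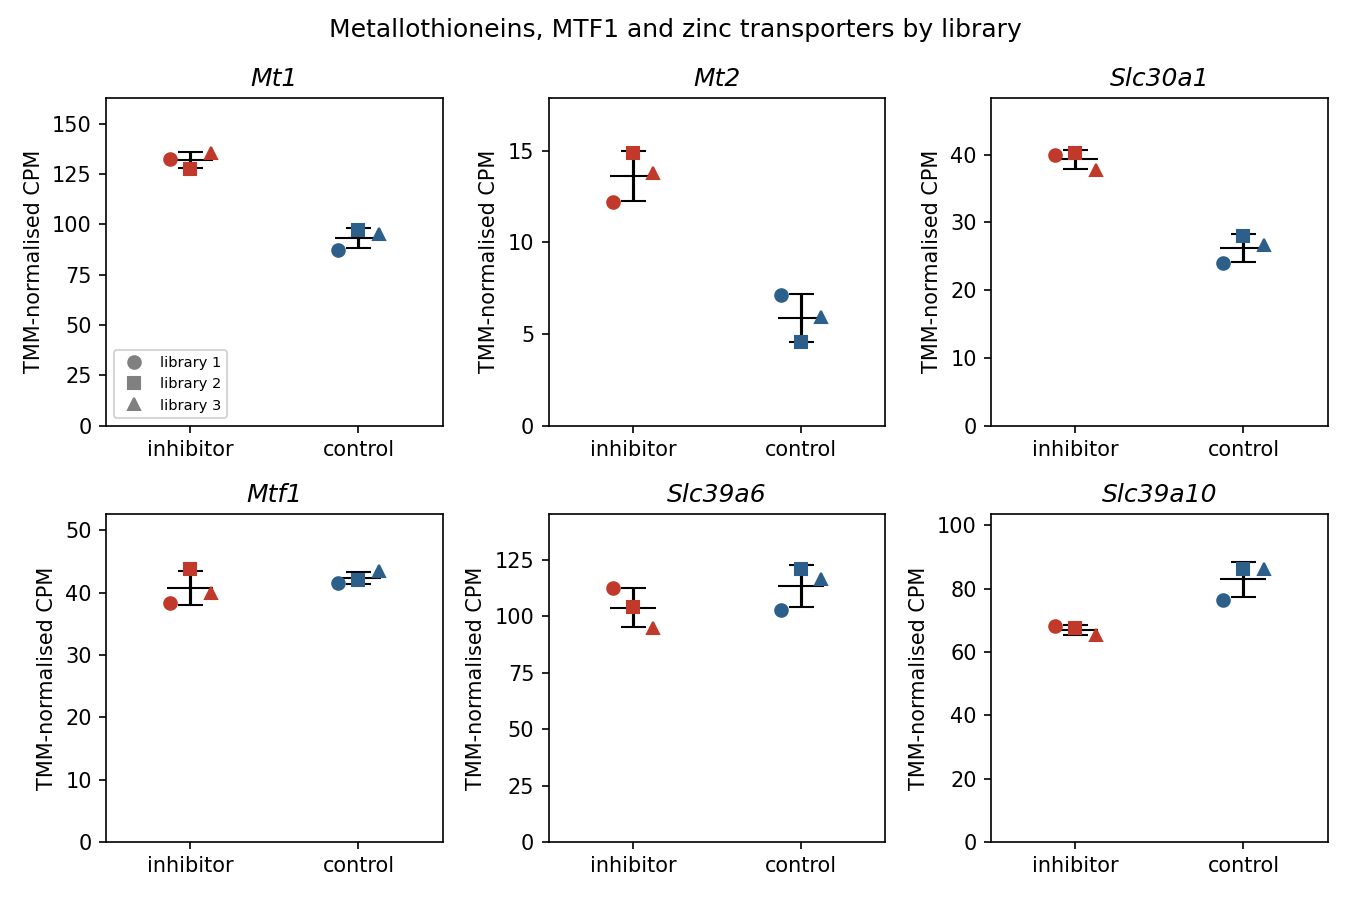
TMM-normalised CPM of the 6 genes in each library (points, shaped by library number, which pairs nothing), with the mean and SD of the 3 libraries of a group (bars). Inhibitor libraries lie above control libraries for Mt1, Mt2 and Slc30a1 and below them for Slc39a10, and the groups overlap for Mtf1 and Slc39a6.

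Mt1 lies on chromosome 8 at 94178883 to 94180327 (mm10). It had 132.2, 127.6 and 135.6 CPM in inhibitor libraries 1 to 3, from 2188 to 2575 counts, against 87.4, 97.0 and 95.2 CPM in control libraries 1 to 3, from 1741 to 2027 counts. Every inhibitor library was above every control library, with control library 1 the lowest of the 6. The means were 132 ± 3.98 CPM in the inhibitor group and 93.2 ± 5.13 CPM in the control group (SD, n = 3 each). The log2 change was 0.50 ± 0.06 (± SE), and edgeR's quasi-likelihood test gave a Benjamini-Hochberg adjusted p = 8.03e-06. Mt1 has a transcript of only 542 bases, and after a correction of each library for GC content and length its log2 change was 0.93 (adjusted p = 0.00691 in the same edgeR test, adjusted p over its alternatives 2.68e-11 to 0.00691).

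Mt2 (chromosome 8, 94172618 to 94173567) showed a larger relative change from a lower level. It had 12.2, 14.9 and 13.8 CPM in inhibitor libraries 1 to 3, against 7.13, 4.55 and 5.92 CPM in control libraries 1 to 3. These values rest on 233 to 256 counts per inhibitor library and 91 to 142 per control library. The groups did not overlap, although control library 1, highest of the controls for Mt2, was lowest for Mt1. Mt2 averaged 13.6 ± 1.39 CPM in the inhibitor group and 5.86 ± 1.29 CPM in the control group (SD, n = 3 each). Its log2 change of 1.21 ± 0.16 had an adjusted p = 1.90e-05 by edgeR's quasi-likelihood test, and 95.3% of tested genes had a smaller absolute log2 change.

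The 2 metallothionein genes lie 5.3 kb apart on the same strand. Mt1 and Mt2 together gave 144, 143 and 149 CPM in inhibitor libraries 1 to 3, against 94.5, 102 and 101 CPM in control libraries 1 to 3. Mt2 supplied 8.43, 10.5 and 9.21% of these counts in inhibitor libraries 1 to 3, against 7.54, 4.48 and 5.85% in control libraries 1 to 3. The share was higher in every inhibitor library than in every control library, but the exact (Clopper-Pearson) 95% interval of control library 1 (6.39 to 8.83%) overlapped those of inhibitor library 1 (7.43 to 9.52%) and inhibitor library 3 (8.11 to 10.4%). These intervals cover counting error only. The mean share was 9.37 ± 1.03% in the inhibitor group and 5.96 ± 1.54% in the control group (SD, n = 3 each). An exact two-sided permutation test gave p = 0.1, the smallest that 3 against 3 libraries allow.

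**Figure D2:**
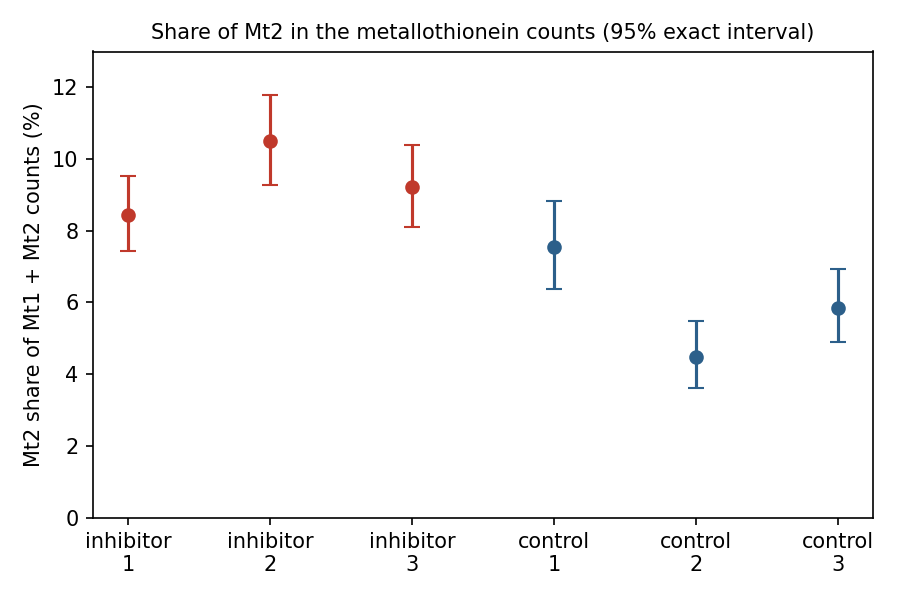
Share of Mt2 in the summed Mt1 and Mt2 counts of each library, in percent, with its exact 95% interval (counting error only). The 3 inhibitor libraries lie between 8.43 and 10.5% and the 3 control libraries between 4.48 and 7.54%.

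Beside them in the cluster lie Mt3, a metallothionein best known from brain, and Mt4, known from stratified epithelium. Mt3 (chromosome 8, 94152607 to 94154148) had 9, 4 and 16 counts in inhibitor libraries 1 to 3 and 0 counts in all 3 control libraries. Its pooled level of 0.541 CPM in the inhibitor group was at least 11.1-fold higher than in the control group, where 3 counts over the group would be 0.049 CPM. With these few reads Mt3 did not enter the test. With no filter on low counts it was called higher, with an adjusted p = 0.000112 by edgeR's quasi-likelihood test. Mt4 had a count of 0 in all 6 libraries. Bbs2, the nearest protein-coding gene on the far side of Mt4 (37.8 kb from it), had 7.80, 9.16 and 13.2 CPM in inhibitor libraries 1 to 3, against 8.28, 6.89 and 7 CPM in control libraries 1 to 3. The groups overlapped for Bbs2, and its log2 change of 0.44 ± 0.18 did not pass (adjusted p = 0.0603 by edgeR's quasi-likelihood test).

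Mtf1, the gene of the metal sensor itself (chromosome 4, 124802549 to 124849800), had 38.4, 43.8 and 40.0 CPM in inhibitor libraries 1 to 3, against 41.6, 42.0 and 43.4 CPM in control libraries 1 to 3. The highest and the lowest of the 6 values were both in the inhibitor group. The log2 change was -0.06 ± 0.08 (adjusted p = 0.582 by edgeR's quasi-likelihood test). After the GC and length correction it was -0.20 and passed (adjusted p = 0.0188 in the same edgeR test, adjusted p over its alternatives 0.0188 to 0.912). A transcript level says nothing of how active the MTF1 protein was.

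Slc30a1 encodes ZnT1, which carries zinc out of the cell across the plasma membrane (chromosome 1, 191906697 to 191913248). It had 40.0, 40.3 and 37.7 CPM in inhibitor libraries 1 to 3, against 24.0, 28.0 and 26.6 CPM in control libraries 1 to 3. The groups were apart, with control library 1 again the lowest. Slc30a1 averaged 39.3 ± 1.40 CPM in the inhibitor group and 26.2 ± 2 CPM in the control group (SD, n = 3 each), and its log2 change was 0.59 ± 0.08 (adjusted p = 5.36e-05 by edgeR's quasi-likelihood test).

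Slc39a10 encodes ZIP10, a zinc importer of the plasma membrane (chromosome 1, 46807544 to 46925776). It had 68.2, 67.6 and 65.2 CPM in inhibitor libraries 1 to 3, against 76.5, 86.2 and 86.1 CPM in control libraries 1 to 3. Every inhibitor library was below every control library. Slc39a10 averaged 67.0 ± 1.60 CPM in the inhibitor group and 82.9 ± 5.57 CPM in the control group (SD, n = 3 each), a log2 change of -0.31 ± 0.07 (adjusted p = 0.00161 by edgeR's quasi-likelihood test). The control level was 1.24 times the inhibitor level, and 64.3% of tested genes had a smaller absolute change.

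Slc39a6 encodes the related importer ZIP6 (chromosome 18, 24579881 to 24603817). It had 112.4, 104.3 and 94.9 CPM in inhibitor libraries 1 to 3, against 102.9, 121.0 and 116.4 CPM in control libraries 1 to 3. Inhibitor libraries 1 and 2 lay above control library 1, so the groups overlapped. The log2 change of -0.13 ± 0.07 did not pass (adjusted p = 0.185 by edgeR's quasi-likelihood test). It passed without control library 1, at -0.19 (adjusted p = 0.0039 in the same edgeR test, adjusted p over its alternatives 0.0039 to 0.584).

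Per transcript length, Mt1 was far above the other 5 genes. Its level was 243 ± 7.34 RPKM (CPM divided by the deposited gene length in kilobases) in the inhibitor group and 172 ± 9.47 RPKM in the control group (SD, n = 3 each). Slc39a6 followed with 26.8 ± 2.24 RPKM in the inhibitor group and 29.2 ± 2.42 RPKM in the control group. Mt2 changed its place in this order. At 21.9 to 26.9 RPKM in the inhibitor libraries it overlapped Slc39a6 (24.5 to 28.9 RPKM) and lay above Slc39a10 (12.8 to 13.4 RPKM), while at 8.18 to 12.8 RPKM in the control libraries it lay below Slc39a10 (15 to 16.9 RPKM). The lowest levels were those of Slc30a1, with 7.21 to 7.70 RPKM in inhibitor and 4.60 to 5.35 RPKM in control libraries, and of Mtf1, with 5.04 to 5.73 RPKM in inhibitor and 5.45 to 5.69 RPKM in control libraries. Slc30a1 thus lay above Mtf1 in every inhibitor library and below it in every control library.

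**Figure D3:**
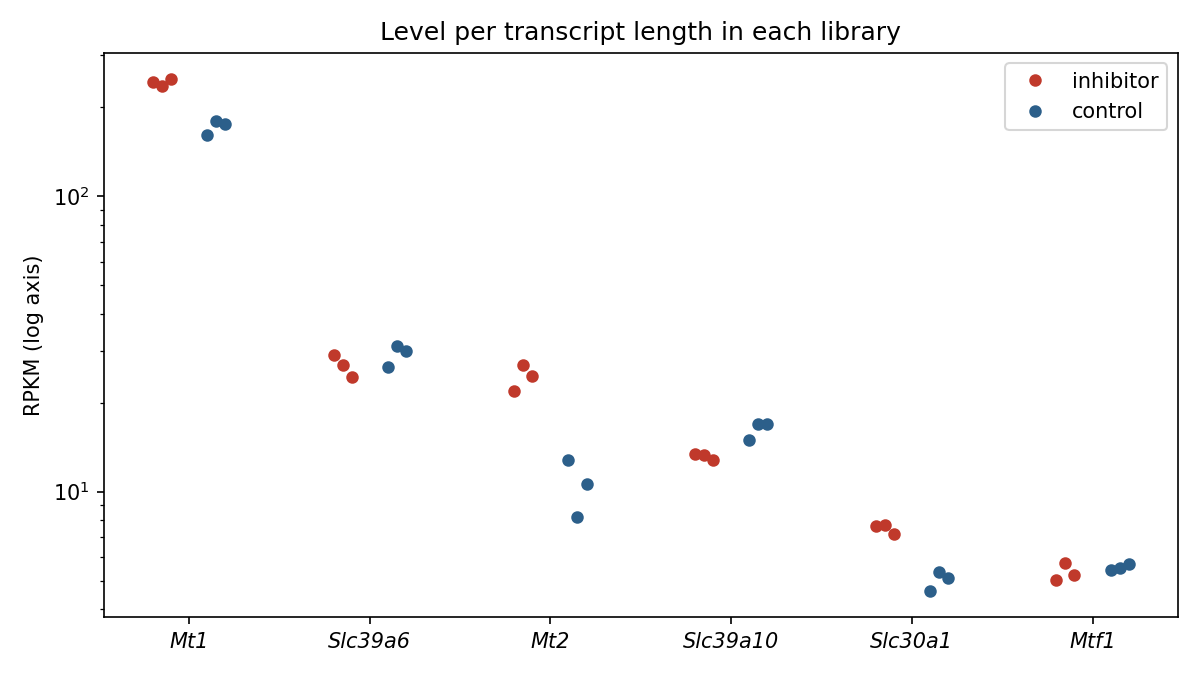
RPKM (log axis) of the 6 genes in each library, inhibitor libraries left of control libraries for each gene, points being libraries. Mt1 lies between 161 and 250 RPKM, and Mt2 overlaps Slc39a6 in the inhibitor libraries and lies below Slc39a10 in the control libraries.

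The profiles of Mt1 and Slc30a1 over the 6 libraries were the closest of any pair among the 6 genes. Likeness was measured as the Euclidean distance between log2 CPM values centred on each gene's mean, in which Mt1 and Slc30a1 were 0.174 apart. Mt1 and Mt2 were 1.07 apart, and the farthest pair was Mt2 and Slc39a10 at 1.966. Among tested genes with a mean of at least 10 counts, the nearest to Mt1 were Tlk1 (0.059), Slc25a24 (0.064) and Kif2a (0.068), so that genes outside this group lay closer to it than Slc30a1 did. Nearest to Slc30a1 were Srgap3 (0.059), Masp2 (0.065) and Eif5a2 (0.093). Mt2 had no neighbour as close, its nearest being Arhgap22 (0.142), Palld (0.205) and Gnaz (0.224). Tacc3 (0.044), Rbmx (0.064) and Heatr1 (0.069) were nearest to Slc39a10. Those nearest to Slc39a6 were Zc3hav1l, Fbxo4 and Mipep (0.066 to 0.079), and those nearest to Mtf1 were Acox3, Arid4a and Cmtr1 (0.049 to 0.051). These distances are descriptions over 6 libraries that also share the group difference.

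Of 12 further Slc39 genes listed, 9 were tested, and 2 of these were lower and 0 higher, leaving 7 not called, beside 20.1% lower and 20.4% higher among all tested genes. Their median log2 change was -0.02. Slc39a7, which releases zinc from the endoplasmic reticulum, had 135.4, 124.9 and 122.4 CPM in inhibitor libraries 1 to 3, against 182.6, 146.7 and 156.5 CPM in control libraries 1 to 3. Its log2 change was -0.34 ± 0.08 (adjusted p = 0.00215 by edgeR's quasi-likelihood test). Slc39a1, an importer of the plasma membrane, fell by 0.18 ± 0.07 on the log2 scale (adjusted p = 0.0478 by edgeR's quasi-likelihood test, adjusted p over its alternatives 0.016 to 0.653), and was called in 4 of the 15 alternatives. Among those that did not pass, Slc39a4 was at 0.28 ± 0.12 and Slc39a9 at -0.10 ± 0.06.

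Among the remaining ZnT genes, 6 of 9 were tested, with 2 higher, 0 lower and 4 not called, beside 20.4% higher and 20.1% lower among all tested genes, and the median log2 change was 0.12. Slc30a4, which loads zinc into vesicles, had 16.4, 15.4 and 20.1 CPM in inhibitor libraries 1 to 3, against 9.48, 14.1 and 12.5 CPM in control libraries 1 to 3. Its log2 change was 0.52 ± 0.14 (adjusted p = 0.00984 by edgeR's quasi-likelihood test), and the call was lost without inhibitor library 3 and with control libraries 1 and 3 left out (adjusted p over its alternatives 0.000803 to 0.16). Slc30a9, a transporter of mitochondrial zinc, rose by 0.20 ± 0.07 (adjusted p = 0.0333 by edgeR's quasi-likelihood test, adjusted p over its alternatives 0.0122 to 0.465) and was lost without inhibitor library 2, inhibitor library 3 or control library 3, and with control libraries 1 and 3 left out. Slc30a5 (-0.09 ± 0.06), Slc30a6 (-0.13 ± 0.10) and Slc30a7 (0.04 ± 0.06), which supply zinc to the secretory pathway, did not pass.

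Of 6 other genes known from the literature as responsive to MTF1 or zinc, 5 were higher, 0 lower and 1 did not pass. Their median log2 change was 0.25, and 20.4% of all tested genes were called higher. This list was drawn up with earlier results of these data known, so its count is a description only. The gene that did not pass, Pgf, had only 30 counts in the inhibitor group and 29 in the control group. Its log2 change of 0.24 ± 0.54 is therefore poorly measured. Gclc, the catalytic part of glutamate-cysteine ligase, which makes the precursor of glutathione, had 144.7, 150.3 and 148.3 CPM in inhibitor libraries 1 to 3, against 102.4, 110.9 and 108.6 CPM in control libraries 1 to 3, a log2 change of 0.46 ± 0.06. Cited2, a transcriptional co-regulator, rose by 0.30 ± 0.06. Gclc and Cited2 were called in all 15 alternatives. The selenoprotein gene Selenow (0.26 ± 0.08), the LIM protein gene Csrp1 (0.25 ± 0.08) and the stress-responsive gene Ndrg1 (0.17 ± 0.06) also rose. Their calls were less stable, with Selenow lost without inhibitor library 3 or control library 2, Csrp1 lost without any 1 of inhibitor libraries 1 and 3 and control libraries 2 and 3, and Ndrg1 lost in 5 of the 6 leave-one-out fits. The list was reduced to 2 called genes without inhibitor library 3 or without control library 2.

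**Figure D4:**
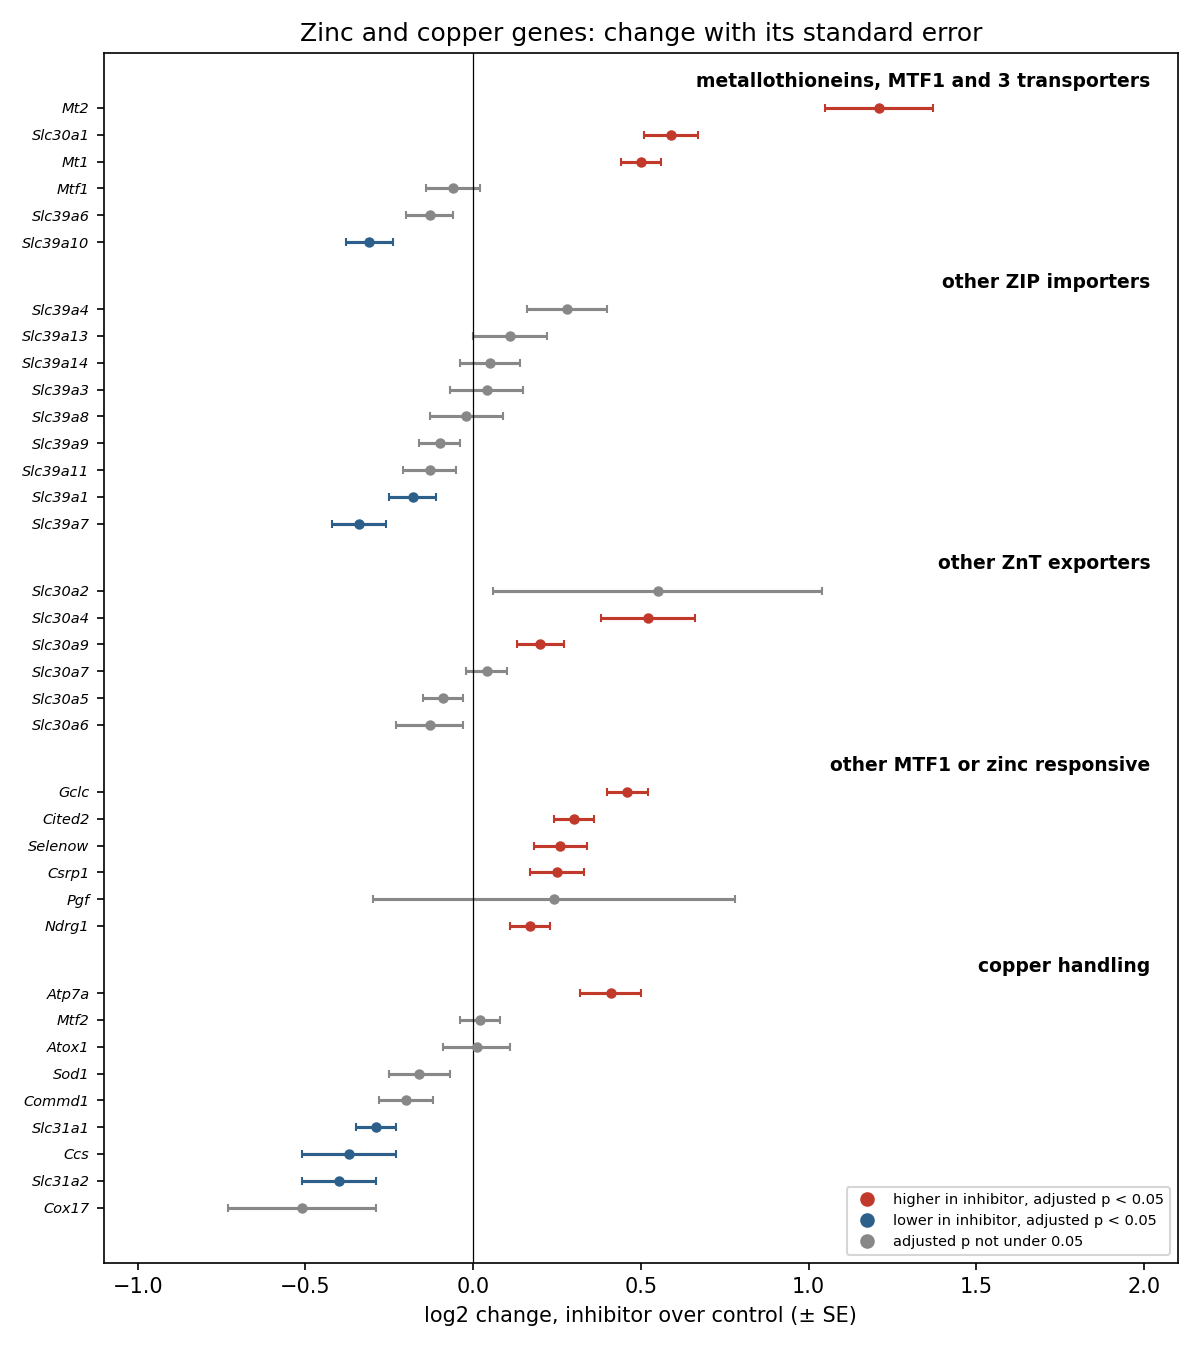
Log2 change of inhibitor over control with its SE (edgeR) for the 6 genes and for the tested genes of 4 lists of zinc and copper genes, coloured by call at an adjusted p of 0.05. Mt2 has the largest rise of the 6 genes at 1.21, and Slc39a10 the largest fall at -0.31.

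Copper, which metallothioneins also bind, has its own transporters, and of 9 tested copper-handling genes 1 was higher, 3 were lower and 5 did not pass, with a median log2 change of -0.20. That is 4 of 9 called, near the 40.5% called among all tested genes. Atp7a, the copper-exporting ATPase, rose by 0.41 ± 0.09 (54.6 ± 2.27 CPM in the inhibitor group and 41.0 ± 6.05 CPM in the control group, SD, n = 3 each). The copper importer gene Slc31a1 fell by 0.29 ± 0.06 on the log2 scale (79.3 ± 2.87 CPM in the inhibitor group and 96.7 ± 2.58 CPM in the control group, SD, n = 3 each), and Slc31a2 fell by 0.40 ± 0.11. These 3 were called in all 15 alternatives. Ccs, the copper chaperone of superoxide dismutase 1, fell by 0.37 ± 0.14, a call lost in 5 of the 6 leave-one-out fits. The target of that chaperone, Sod1, did not pass (-0.16 ± 0.09). Mtf2, which this list holds, encodes a Polycomb protein and not a copper transporter or chaperone, and did not pass either (0.02 ± 0.06).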

How the data were processed

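RNA had been extracted with Trizol and made into mRNA libraries with a VAHTS kit, per the labels. The deposited counts are whole reads per RefSeq gene symbol, not normalised, per the file headers. The authors also deposited RPKM per the file headers, used here only to check the counts and for the Mt2 share. The submitters' processing notes name mm10 and bcl2fastq 2.20. For aligner, counter and strandedness: not given in the sources used here. Overlapping and antisense genes cannot be told apart.

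The 6 genes and all lists were chosen with earlier results of these data known. Genes passing edgeR's filterByExpr (minimum count 10, total 15) were scaled by TMM and tested by quasi-likelihood (edgeR 4.0.16, robust, R 4.3.3) at a Benjamini-Hochberg adjusted p of 0.05 over all 12978 genes. Replicates differed by more than counting noise (chi-square per degree of freedom 3.04 to 16.78) and were each used. In simulated data with 12978 genes for this comparison, 23 of 50 genes changed 1.25-fold and 45 of 50 changed 1.5-fold were recovered, with 7 false calls. The changed genes all had a mean above 50 counts and were a far smaller share than the 40.5% called in the data. These rates therefore do not measure recovery in the data themselves, or for genes with fewer counts. Alternatives used limma 3.58.1 and DESeq2 1.42.0. Named were the 6 genes, up to 6 called genes of each list by smallest p, and the 3 genes nearest each in profile (prior count 2). Bbs2, next to the metallothionein cluster, was chosen after the data were seen. The files held 0 columns of other series.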

Additional observations from a re-analysis of the deposited data

How the results depend on the processing

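Mt1, Mt2, Slc30a1 and Slc39a10 kept their direction and their call in each of the 15 alternatives, with log2 changes of 0.44 to 0.93, 1.07 to 1.60, 0.49 to 0.64 and -0.40 to -0.27. The count of all called genes ranged from 4044 to 6033. Slc39a6 passed with control libraries 1 and 3 left out (-0.22) and after the GC and length correction (-0.16), and lay between -0.19 and -0.06 without 1 library. Mtf1 passed after that correction (-0.20). Among the other ZIP genes 1 and not 2 was called with RLE size factors, a stricter filter, DESeq2 or limma-voom, 3 with no filter, with the replicate block or after the GC and length correction, and 1 to 2 without 1 library. Among the other ZnT genes 4 were called after the GC and length correction, 0 with control libraries 1 and 3 left out (which leaves 1 control, assumed to vary like the inhibitor libraries) and 0 to 3 without 1 library. The MTF1 and zinc list gave 2 to 5 calls without 1 library, and the glucocorticoid list 8 after the correction. The count of other metallothioneins was 1 (Mt3) with no filter and with control libraries 1 and 3 left out. With those libraries left out, Mt3 passed the filter only through its inhibitor counts and was set against 1 control at 0, so that call supports nothing. The causes were not tested. With the replicate number as a block, 5673 genes were called and no call of the 6 genes changed. Same-numbered libraries deviated together by correlations of only 0.01 to 0.06, and control library 2 correlated more with inhibitor library 3 (0.02) than with its own number (0.01), so the numbers were not taken as pairs. Depth limits Mt3, Slc30a2 and Pgf, with under 1 CPM.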

Other observations

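Metallothionein genes are also known to respond to glucocorticoids and to oxidative and heat stress, and these lists were examined beside them. Of 11 genes of the glucocorticoid receptor and its targets, 3 were higher, 2 lower and 6 did not pass, with a median log2 change of 0.06. That is 5 of 11 called, near the 40.5% called among all tested genes. The kinase gene Sgk1 rose by 1.59 ± 0.11, the phosphatase gene Dusp1 by 1.96 ± 0.11 and Zfp36, which encodes an mRNA decay factor, by 0.49 ± 0.07. The receptor cochaperone gene Fkbp5 (-0.33 ± 0.06) and Cebpd (-0.47 ± 0.09) fell. The receptor gene Nr3c1 (-0.02 ± 0.06) and Tsc22d3 (0.09 ± 0.09) did not pass.

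Of 12 genes of heavy metal and oxidative stress, a list drawn up knowing that several of them had risen, 12 were higher, beside 20.4% of all tested genes, with a median log2 change of 1.62. The changes ranged from 0.18 to 2.17. In the leave-one-out fits, 10 to 12 genes of this list were called, and its least stable call held in 9 of the 15 alternatives. The 6 with the smallest p were Srxn1 (2 ± 0.06), which encodes sulfiredoxin, Hmox1 (2.17 ± 0.07), the haem oxygenase gene, Gclm (1.57 ± 0.06), the modifier subunit of glutamate-cysteine ligase, the heat shock gene Hspa1b (1.87 ± 0.10), the cystine transporter gene Slc7a11 (1.93 ± 0.11) and Nqo1 (1.66 ± 0.14), a quinone reductase. The value of Hspa1b is uncertain, since its near-identical copy Hspa1a, also counted among the 12, can share its reads. Nqo1 had 14.4 ± 0.212 CPM in the inhibitor group and 4.52 ± 0.671 CPM in the control group (SD, n = 3 each). Mt1, at a log2 change of 0.50, and Mt2, at 1.21, lay below the median of that list.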
